A study of Mus musculus with 6 samples.

Results

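The receptors for glutamate and GABA were followed subunit by subunit in the hippocampus of the Cx3cr1-NuTRAP mouse. They were read in RNA of the cleared homogenate (Input) and in RNA pulled down with ribosomes tagged to enrich for microglia (Positive). The subunits were chosen by symbol, as protein-coding genes of the Gria, Grin, Grik, Grid, Grm, Gabr and Gabbr families, and 38 of the 15388 genes in the deposited table matched. All 38 passed the filter on low values, over 20 scaled reads (raw reads divided by a size factor of the library) in the 3 Input or the 3 Positive libraries, and entered the test among 15343 genes. The mouse annotation holds 47 such symbols. The 9 others (Gabra6, Gabre, Gabrp, Gabrq, Gabrr1, Gabrr2, Gabrr3, Grin3b and Grm6) had no row in the deposited table, so they were not analysed here.

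The 6 libraries came from 3 mice, animals 201, 207 and 208, each of which gave 1 Input and 1 Positive library. All were Cx3cr1-cre/ERT2+; NuTRAP+, carrying a single copy of each transgene (Cx3cr1-cre/ERT2+/wt; NuTRAP flox/wt), and were induced with tamoxifen at about 3 months of age, so that both fractions share genotype and treatment. Input is RNA of the cleared hippocampal homogenate, and Positive is the RNA that an antibody to GFP pulled down from it with EGFP-tagged ribosomes (TRAP). The Cx3cr1 promoter drives the inducible Cre in microglia and also in other macrophages, males and females were used in the study, and neither the unbound fraction nor Cre-negative mice were analysed here.

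Glutamate opens AMPA, NMDA and kainate receptors, which are tetramers of subunits and carry fast excitation in the hippocampus, and it also acts on metabotropic receptors that couple to G proteins. GABA opens GABA-A receptors, pentamers that are mostly built of alpha, beta and gamma subunits, and acts on GABA-B receptors, obligate pairs of Gabbr1 and Gabbr2 products. Neurons hold most of these transcripts, astrocytes and oligodendrocyte precursors hold some of them, and resting microglia are not known as a main source.

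The libraries held 14879734 to 17757918 reads. The receptor subunits took 0.693% to 0.720% of the reads in Input and 0.592% to 0.699% in Positive. For microglial markers the fractions matched their labels: all 10 were higher in Positive, beside 24.0% of all genes. Their median log2 fold change was 4.66, and their summed level went from 5509.7 to 5986 scaled reads in Input to 111745 to 164677 in Positive. The 10 general neuronal markers summed to 128173 to 132265 scaled reads in Input and 122055 to 142451 in Positive. Neuronal transcripts were thus abundant in both fractions. The median log2 fold change was 0.06 over these markers and -0.01 over the 99 genes of the study's neuronal list. The study describes marker genes of cell types other than microglia as generally depleted in hippocampal Positive RNA. Which cells the subunit reads in Positive came from was not tested. In bulk RNA, fewer cells of a type and less RNA per cell cannot be told apart.

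Most receptor subunits had mean levels in the Positive fraction close to those of Input. The median log2 fold change over the 38 subunits was -0.07, with a range from -0.77 for Gabra3 to 0.45 for Grm8, against a median of -0.01 over all genes tested. That median over the subunits was 0.0027 when the animal 201 Positive library was left out, -0.14 when the one of animal 208 was, and -0.15 under total count scaling, where the median of all genes was -0.09. No subunit passed a 2-fold difference in either direction, whereas 12.8% of all genes did. In the edgeR quasi-likelihood test, 10 of the 38 subunits (26.3%) differed between fractions at an adjusted p-value under 0.05, and 46.0% of all genes did. Of these, 8 subunits fell (Gabra3, Grin2c, Grik5, Gria4, Gabrg1, Grm3, Grik2 and Gria3), beside 22.0% of all genes. The other 2 rose (Grin2b and Gabbr2), beside 24.0% of all genes.

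**Figure D1:**
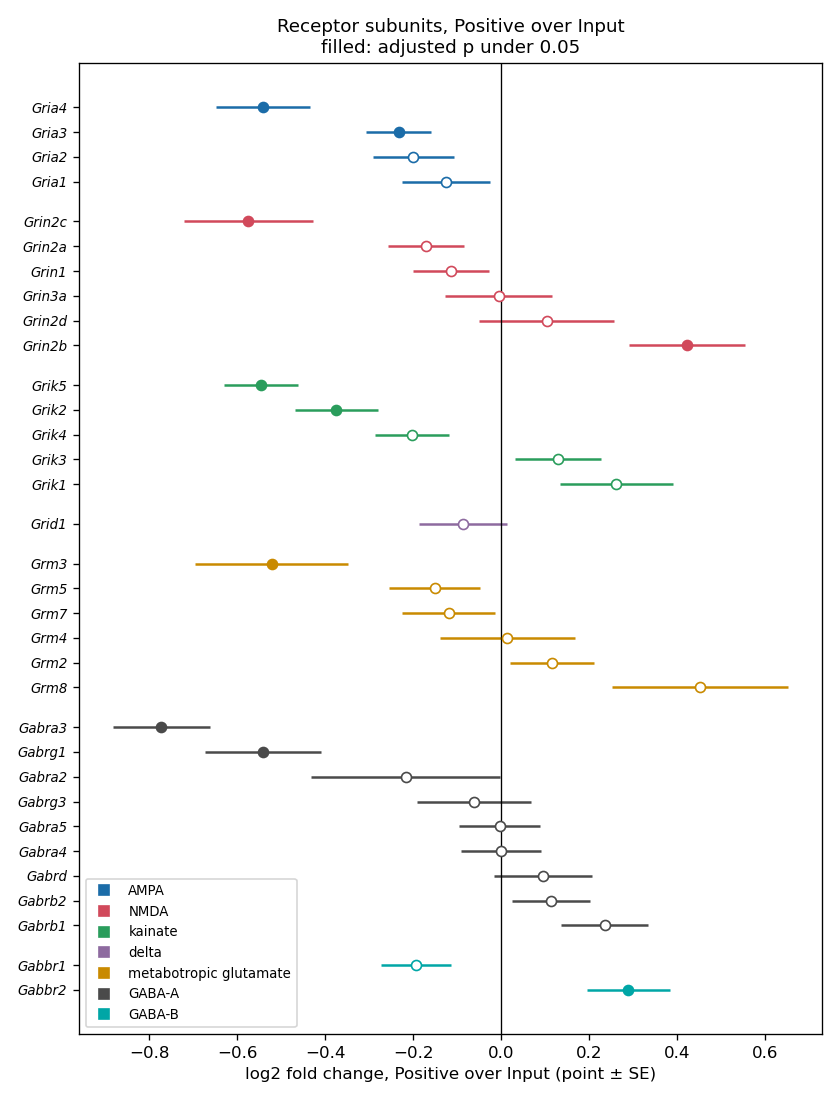
Log2 fold change of Positive over Input for 33 of the 38 subunits (horizontal axis, point ± SE of the edgeR fit), grouped and coloured by receptor family. Filled points are the 10 subunits with an adjusted p-value under 0.05, of which 8 lie below 0 and 2 above, and every point lies between -0.77 and 0.45.

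The libraries of the 2 fractions did not overlap for 12 subunits (31.6%), against 56.5% of all genes. Positive was lower in 10 of them (27.6% of all genes) and higher in 2 (28.9% of all genes). Seen animal by animal, 17 subunits (44.7%) were lower and 6 (15.8%) higher in all 3 animals, beside 35.6% and 34.9% of all genes, and 15 were mixed. The median over the subunits of log2 Positive over Input was -0.19 in animal 201, -0.14 in animal 207 and 0.04 in animal 208. The same median over the excitatory neuron markers was -0.16, -0.10 and 0.14 in these animals, and over the general neuronal markers -0.0051, 0.03 and 0.21, and the part of neuronal RNA content in the subunit values was not tested. Without the Positive library of animal 208, 15 subunits were called and 13 of them were lower, beside 47.3% of all genes called and 22.4% lower. Without the Input library of animal 207, 6 were called, all lower, beside 36.1% of all genes called and 16.5% lower.

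Per kilobase of annotated exon, the Input level was highest for Gria1, at 2325 ± 182 scaled reads per kb (SD, n = 3), and next highest for Gabbr1 at 1546 ± 35.8. Grik5 (954 ± 42.7), Grin1 (915 ± 31.3) and Gria2 (830.1 ± 77.7) followed, and neighbours among these 3 lay within 2 SDs of each other. Among the lowest were Gabrg3 with 27.1 ± 0.0922 and Grm8 with 13.02 ± 3.04 scaled reads per kb. The length is the union of all annotated exons of a gene, so a gene with long rare transcripts has a low value on this scale. Over the 38 genes the log2 fold change had a Spearman correlation of -0.15 with the Input level per kb and 0.11 with exon length, given as a description across genes that share the same 6 libraries.

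All 4 AMPA receptor subunits had log2 fold changes below 0. Gria4 and Gria3 fell in Positive, and Gria1 and Gria2, which make up the main hippocampal AMPA receptor, had log2 fold changes of -0.13 and -0.20 that did not pass the test. The median over the 4 genes was -0.22, and it was below 0 in each animal (-0.23, -0.28 and -0.16) and under every alternative run. It lay between the lower and upper quartiles of all genes tested (-0.32 and 0.29).

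For Gria4 (GluA4, a fast subunit common in interneurons; chromosome 9, 4417896 to 4796234, minus strand, mm10), the Input libraries of animals 201, 207 and 208 held 1045, 834 and 844 scaled reads and the Positive libraries 636, 574 and 660.4. Every Positive value lay under every Input value, with the highest Input value in animal 201. Gria4 fell by 0.54 ± 0.11 (SE) on the log2 scale, to 68.7% of its Input mean (edgeR quasi-likelihood test, adjusted p-value 0.00119, n = 3 per fraction).

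For Gria3 (GluA3; chromosome X, 41400854 to 41678601, plus strand), the values were 3267, 3149 and 3138 scaled reads in Input and 2649, 2619 and 2862 in Positive. The 3 Input values lay close together and above all Positive values. Gria3 fell by 0.23 ± 0.07 (SE) on the log2 scale (edgeR adjusted p-value 0.0207). This call rested on the full set of libraries: it was lost in 5 of the 6 fits that left out 1 library, with adjusted p-values of 0.0576 to 0.0686, and was kept only without the Positive library of animal 208.

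Gria1 (GluA1; chromosome 11, 57011387 to 57330244, plus strand), the AMPA subunit with the highest Input level, had 12806, 14440.3 and 14897 scaled reads in Input and 11546, 12683 and 14414 in Positive. Gria2 (chromosome 3, 80681450 to 80802835, minus strand), whose edited form keeps calcium out of the channel, had 11511, 13622 and 13586 in Input and 10711, 11146 and 11853 in Positive. In both genes each animal was lower in Positive than in its own Input, but the fractions overlapped across animals. The adjusted p-value was 0.331 for Gria1 and 0.0932 for Gria2. Without the Positive library of animal 208 both passed, at log2 fold changes of -0.21 (adjusted p-value 0.0412) and -0.24 (0.027), and Gria2 also passed without the Input library of animal 201, at -0.28 (0.0435).

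Of the kainate receptor subunits, Grik5 and Grik2 fell, Grik4 and Grik1 did not pass the test although their fractions did not overlap, and Grik3 had a log2 fold change of 0.13. Grik5 encodes GluK5, a high-affinity subunit that reaches the surface only together with a GluK1, GluK2 or GluK3 partner, and it had the highest Input level of this family.

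For Grik5 (chromosome 7, 25009849 to 25072346, minus strand), the values of animals 201, 207 and 208 were 5182, 4821 and 4782 scaled reads in Input and 3247, 3165 and 3723 in Positive. The gap between the lowest Input and the highest Positive value was wider than the range within either fraction. Grik5 fell by 0.54 ± 0.08 (SE) on the log2 scale, to 68.5% of its Input mean (edgeR adjusted p-value 0.000184).

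For Grik2 (GluK2, a principal kainate subunit; chromosome 10, 49094833 to 49788766, minus strand), the values were 986, 1053 and 1124 scaled reads in Input and 742, 796 and 901 in Positive. Both fractions had the same order of animals, lowest in 201 and highest in 208, and did not overlap. Grik2 fell by 0.37 ± 0.09 (SE) on the log2 scale (edgeR adjusted p-value 0.00604).

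Grik4, the other high-affinity subunit, had 1096 to 1180.3 scaled reads in Input and 936 to 1059.9 in Positive, with a log2 fold change of -0.20 and an adjusted p-value of 0.0636. Without the Positive library of animal 208 Grik4 passed, at -0.26 (adjusted p-value 0.0182). Grik1 was higher in each animal, with 204 to 228 scaled reads in Input and 246 to 278 in Positive, and its log2 fold change of 0.26 had an adjusted p-value of 0.114. Grik3 had 1098 to 1315 scaled reads in Input and 1250.3 to 1504 in Positive (edgeR adjusted p-value 0.304). It overlaps the pseudogene Ftl2-ps on the same strand over 552 bases, counted over the whole gene with introns. Whether reads were shared between these rows was not tested.

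Among NMDA receptor subunits the glutamate-binding GluN2 genes went in different directions. Grin2b rose and Grin2c fell, while Grin2a (-0.17), Grin2d (0.10), the obligatory subunit Grin1 (-0.11) and the glycine-binding Grin3a (-0.01) did not pass the test.

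Grin2b (GluN2B, which predominates early in development and stays strong in the adult forebrain; chromosome 6, 135713233 to 136173511, minus strand) had 9790.1, 10144 and 10945 scaled reads in the Input libraries of animals 201, 207 and 208, and 10484, 15082 and 15833 in the Positive libraries. Positive was clearly above Input in animals 207 and 208, whereas in animal 201 it lay within the Input range, so the fractions overlapped. Grin2b rose by 0.42 ± 0.13 (SE) on the log2 scale (edgeR adjusted p-value 0.019). The call was lost without the Input library of animal 201 (adjusted p-value 0.0807) or 207 (0.0681) and without the Positive library of animal 207 (0.0679), at log2 fold changes of 0.35 to 0.41.

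Grin2c (GluN2C, best known from cerebellar granule cells; chromosome 11, 115249169 to 115267243, minus strand) had 963, 835 and 882 scaled reads in Input and 779, 533 and 488 in Positive. The fractions did not overlap, and the drop was smallest in animal 201. Grin2c fell by 0.57 ± 0.15 (SE) on the log2 scale, to 67.1% of its Input mean (edgeR adjusted p-value 0.00641).

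Grin1 (GluN1; chromosome 2, 25291181 to 25319187, minus strand) had 9217, 8646 and 8752 scaled reads in Input and 8519, 7362 and 8717 in Positive, with an adjusted p-value of 0.307. Its Positive value in animal 208 lay inside the Input range and the other two lay below it. Grin2a had 4805 to 5077 scaled reads in Input and 3926 to 4788 in Positive, which did not overlap, with an adjusted p-value of 0.12. Without the Positive library of animal 208, Grin2a passed at -0.24 (0.0135). Grin2d, with 229 to 328 scaled reads in Input and 267 to 302 in Positive, shares its locus with 2 rows on the opposite strand, Kdelr1 and Gm45441. Grin3a had 514 to 617 scaled reads in Input and 516 to 674 in Positive.

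The delta receptors, which are built like the other ionotropic receptors but act mainly as synaptic organisers that bind cerebellins, did not pass the test. Grid1 (chromosome 14, 34820108 to 35583379, plus strand) had 1287, 1051 and 1098 scaled reads in Input and 1080.4, 977 and 1178 in Positive, with a log2 fold change of -0.09 ± 0.10 (SE). Animal 207 had its lowest value in either fraction.

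Of the 7 metabotropic glutamate receptors, Grm3 fell and the others did not pass the test. Grm3 and Grm2 are the group II receptors, which lower cyclic AMP, and Grm3 is known from astrocytes as well as neurons.

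Grm3 (chromosome 5, 9485541 to 9725170, minus strand) had 503, 477 and 414 scaled reads in the Input libraries of animals 201, 207 and 208, and 421, 317 and 234 in the Positive libraries. Each animal was lower in Positive, but animal 201 in Positive lay just above animal 208 in Input. Grm3 fell by 0.52 ± 0.17 (SE) on the log2 scale (edgeR adjusted p-value 0.0269). The call was lost without the Input library of animal 201 (adjusted p-value 0.096) or 207 (0.0768) and without the Positive library of animal 207 (0.0696) or 208 (0.0605), with log2 fold changes from -0.50 to -0.34.

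Grm5 (mGluR5, a group I receptor that raises calcium; chromosome 7, 87584168 to 88134907, plus strand), the metabotropic receptor with the highest Input level, had 3240.2, 3344 and 3479 scaled reads in Input and 2583, 2923 and 3558 in Positive. Its Positive values ran from below to above the Input range. Grm5 stood at -0.15 ± 0.10 (SE) on the log2 scale (edgeR adjusted p-value 0.255). It passed when the Positive library of animal 208 was left out, at -0.28 (adjusted p-value 0.00741). Grm5 overlaps the row Gm44848 on the same strand over 3234 bases.

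Grm2 had 1006 to 1129.6 scaled reads in Input and 1021 to 1283 in Positive. Of the group III receptors, which sit mostly on presynaptic endings, Grm7 (639 to 788 in Input, 584 to 684 in Positive) and Grm4 (209 to 303 and 230.4 to 278) overlapped broadly between fractions. Grm8 had 164, 111 and 112 scaled reads in Input and 215, 155 and 158 in Positive, so that animal 201 was the highest in both and each animal was higher in Positive. Grm8 did not pass at 0.45 ± 0.20 (SE) on the log2 scale (edgeR adjusted p-value 0.0809). With a replicate block for the animal it passed, at 0.46 (adjusted p-value 0.0231), as it did without the Input library of animal 201, at 0.66 (0.025).

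**Figure D2:**
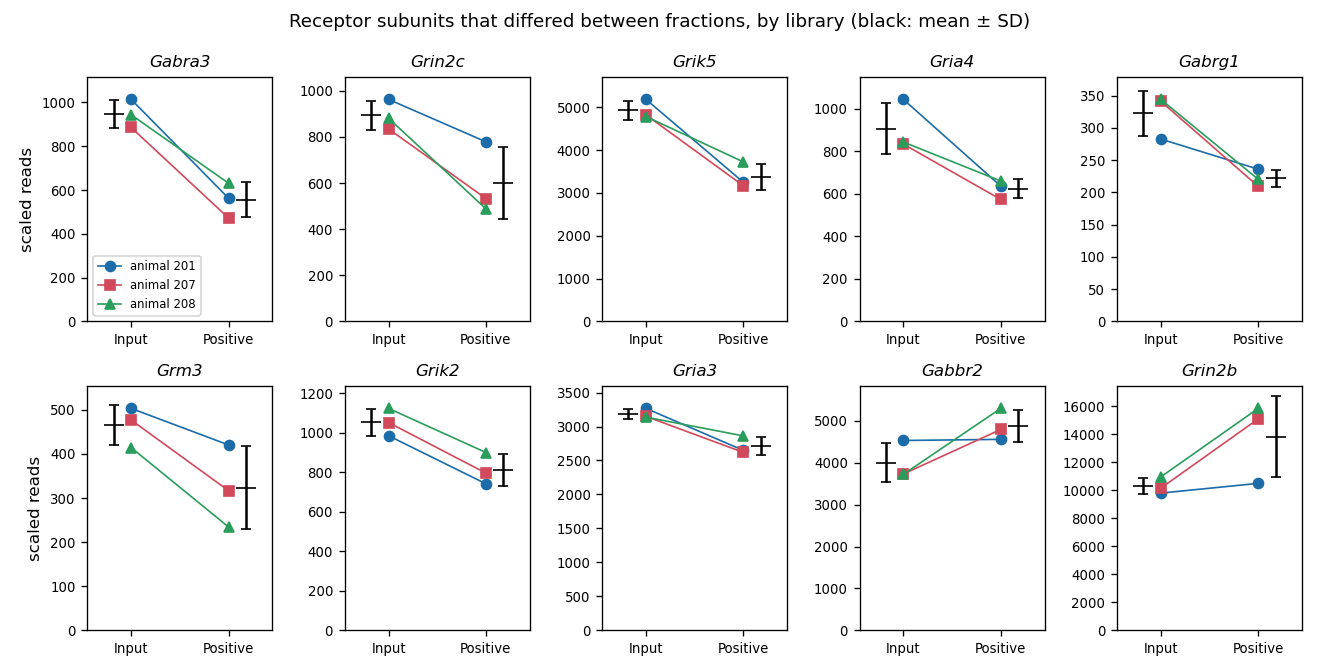
Scaled reads (vertical axis, from 0) of the 10 subunits that differed between fractions, in the Input and Positive library of each animal, joined by a line per animal, with the mean ± SD of 3 libraries in black. All lines fall in the 8 lower subunits, and Gabbr2 and Grin2b are nearly level in animal 201 and rise in animals 207 and 208.

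Most of the 12 GABA-A subunits had mean levels near those of Input. Gabra3 and Gabrg1 fell, and the other 10 did not pass the test, with log2 fold changes from -0.22 (Gabra2) to 0.24 (Gabrb1). The promoters of Gabra3 and Gabrg1 were the 2 of lowest CpG content among the 23 subunits with an entry in the RefSeq promoter table, and they are shown with that of Gabbr2, one of the CpG-rich promoters, because the contrast is visible in the letters. These promoters were picked with the values of the genes in view. The windows run from 250 bases before to 50 after the RefSeq start (GRCm38.p6, 5′ to 3′ on the strand of the gene), Gabra3 at chrX:72656758-72657057 on the minus strand, Gabrg1 at chr5:70842568-70842867 on the minus strand and Gabbr2 at chr4:46991665-46991964 on the minus strand. Capitals mark CpG pairs.
Gabra3: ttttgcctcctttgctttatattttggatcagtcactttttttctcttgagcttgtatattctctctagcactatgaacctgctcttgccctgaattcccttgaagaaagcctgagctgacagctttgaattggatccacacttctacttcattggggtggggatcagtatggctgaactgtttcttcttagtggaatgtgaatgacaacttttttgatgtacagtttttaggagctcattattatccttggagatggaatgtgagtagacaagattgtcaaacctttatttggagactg
Gabrg1: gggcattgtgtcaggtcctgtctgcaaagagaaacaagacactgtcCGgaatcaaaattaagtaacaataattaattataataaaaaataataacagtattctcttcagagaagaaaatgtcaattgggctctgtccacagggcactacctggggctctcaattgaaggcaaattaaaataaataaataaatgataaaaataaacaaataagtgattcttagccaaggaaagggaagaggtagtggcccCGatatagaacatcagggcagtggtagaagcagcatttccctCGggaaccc
Gabbr2: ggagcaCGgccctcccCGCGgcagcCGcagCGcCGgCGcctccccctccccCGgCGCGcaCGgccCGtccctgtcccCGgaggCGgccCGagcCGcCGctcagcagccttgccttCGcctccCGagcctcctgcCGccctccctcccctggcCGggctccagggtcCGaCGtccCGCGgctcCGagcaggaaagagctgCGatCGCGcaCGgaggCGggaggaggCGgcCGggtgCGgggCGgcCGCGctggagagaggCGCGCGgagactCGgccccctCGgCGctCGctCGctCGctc

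The Gabra3 window held 0 CpG pairs and 39.3% GC, the Gabrg1 window 3 pairs and 38.3% GC, and the Gabbr2 window 46 pairs and 80.3% GC. The median over the 23 subunit promoters was 18 pairs and 65.7% GC, against 7 pairs and 53.0% GC over 32544 mouse promoters of the same length. The RefSeq start lay 11697 bases from the gene start in the deposited table for Grin2d and 683 bases for Gabrb2. Both entered these medians and the motif shares below. CpG content did not separate the subunits that fell: Grik5 (10 pairs), Grm3 (11), Gria4 (17), Grin2c (22) and Grik2 (26) fell as well, and Gabrb2 (11), Gabra4 (12), Gabra5 (13) and Gabrg3 (13) did not pass the test. On either strand, the GC box GGGCGG occurred in 15 of the 23 (65.2%, against 35.9% of all promoters) and the TATA box TATAAA in 2 (8.70% against 13.6%), one of them Gabra3. The Egr site GCGGGGGCG occurred in 2 (Grin1 and Grm3; 8.70% against 2.93%), where a match can share letters with a GC box. The left-hand element TTCAGCACC of RE1, the site of the repressor REST, occurred in 1 (Grm2; 4.35% against 0.372%), and the RE1 right-hand element and the cAMP response element TGACGTCA in 0 (against 0.138% and 1.80%). These are matches of letters in a window and were not tested as sites.

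For Gabra3 (alpha 3; chromosome X, 72432681 to 72656848, minus strand), the Input libraries of animals 201, 207 and 208 held 1014, 886 and 944 scaled reads and the Positive libraries 563, 472 and 631. The fractions were far apart in each animal, and no subunit had a lower log2 fold change. Gabra3 fell by 0.77 ± 0.11 (SE) on the log2 scale, to 58.6% of its Input mean (edgeR adjusted p-value 9.97e-05). A pseudogene row on the opposite strand, Gm14735, overlaps Gabra3 over 3088 bases.

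For Gabrg1 (gamma 1; chromosome 5, 70751047 to 70842617, minus strand), the values were 283, 341 and 344 scaled reads in Input and 236, 209 and 220.2 in Positive. Animal 201 had the lowest Input and the highest Positive value, and the fractions did not overlap. Gabrg1 fell by 0.54 ± 0.13 (SE) on the log2 scale, to 68.7% of its Input mean (edgeR adjusted p-value 0.00473).

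Gabra5 (-0.0036), known for hippocampal receptors outside synapses, Gabra4 (-0.00034) and Gabrg3 (-0.06) had log2 fold changes near 0. Gabrd (0.10), the delta subunit of receptors outside synapses, and Gabrb2 (0.11) had adjusted p-values of 0.507 and 0.318.

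Gabrb1 (beta 1) had 2160.3 to 2422 scaled reads in Input and 2318 to 3056 in Positive, at 0.24 ± 0.10 (SE) on the log2 scale (edgeR adjusted p-value 0.0671). Without the Positive library of animal 201 it passed, at 0.33 (adjusted p-value 0.0102). Gabra2 (alpha 2), described here after its values were seen, had 2529, 4223 and 3822 scaled reads in Input and 1921, 3646 and 3529 in Positive. Animal 201 was low in both fractions, by 0.45 below the fraction mean of log2 values in Input and 0.60 in Positive, and no other subunit had so large a shift shared by both fractions of an animal. Within each animal Gabra2 was lower in Positive (log2 ratios of -0.40, -0.21 and -0.12). Gabra2 stood at -0.22 ± 0.21 (SE) on the log2 scale (edgeR adjusted p-value 0.433). With a replicate block for the animal it passed, at -0.24 (adjusted p-value 0.0209).

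The GABA-A genes lie mostly in clusters. On chromosome 5 (70751047 to 72149037), Gabrg1 fell, next to Gabra2, Gabra4 and Gabrb1 with log2 fold changes of -0.22, -0.00034 and 0.24. Gabra4 and Gabrb1 start within 387 bases of each other on opposite strands in RefSeq.

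The paired subunits of the GABA-B receptor had log2 fold changes of opposite sign. Gabbr2, which couples to the G protein, rose, and Gabbr1, which binds GABA, was lower in each animal without passing the test.

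Gabbr2 (chromosome 4, 46662305 to 46991873, minus strand) had 4531, 3732 and 3723 scaled reads in the Input libraries of animals 201, 207 and 208, and 4558, 4793 and 5297 in the Positive libraries. The fractions did not overlap, although animal 201 was level between them. Gabbr2 rose by 0.29 ± 0.10 (SE) on the log2 scale (edgeR adjusted p-value 0.0251). It did not pass without the Input library of animal 207 (adjusted p-value 0.117) or 208 (0.124), at 0.24 in each case, nor under total count scaling (0.21, adjusted p-value 0.0794).

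Gabbr1 (chromosome 17, 37045966 to 37075067, plus strand) had 12302, 11959 and 11751 scaled reads in Input and 10496, 10134 and 10868 in Positive. All Positive values lay below all Input values, at -0.19 ± 0.08 (SE) on the log2 scale (edgeR adjusted p-value 0.0614). Without the Positive library of animal 208 it passed, at -0.22 (adjusted p-value 0.016).

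Ratios of 2 subunits within a library do not depend on how libraries were scaled, and 12 such pairs were compared. In 6 of them the Input and Positive libraries did not overlap. Single genes did not overlap in 56.5% of all genes tested, and the share over other gene pairs was not computed. Non-overlap is the most extreme arrangement of 3 against 3. It has an exact permutation p-value of 0.1 (two-sided), the smallest possible in this test, which did not pair the libraries by animal. Adjusted over the 12 pairs the smallest p-value was 0.2, so no pair could pass the test. The log2 ratio of Grin2a to Grin2b was -1.02, -1.08 and -1.11 in the Input libraries of animals 201, 207 and 208, and -1.42, -1.79 and -1.73 in the Positive libraries. Positive was lower by 0.40 to 0.71 in each animal. Grin2b had the larger share of this pair in every library of both fractions, and its excess was larger in Positive.

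The log2 ratio of Gabbr1 to Gabbr2 was 1.44, 1.68 and 1.66 in Input and 1.20, 1.08 and 1.04 in Positive, a mean difference of -0.49. For Grik1 to Grik2 the ratio was higher in Positive, at -1.56, -1.69 and -1.69 against -2.11, -2.36 and -2.38 in Input, and the difference was 0.55 to 0.69 in each animal. The pairs with lower ratios in Positive also included Grm3 to Grm2 (mean difference -0.67) and Gria4 to Gria2 (-0.34). The ratio of Gria1 to Gria2 overlapped between fractions, with a mean difference of 0.07 and a p-value of 0.3 (exact permutation test).

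As shares of reads per kb within a receptor class, Grin2b made up 45.8% ± 1.93 of the 4 GluN2 genes in Input and 57.4% ± 6.27 in Positive (SD, n = 3). Grin2c went from 19.6% ± 1.34 to 12.8% ± 4.92, and Grin2a from 30.2% ± 0.387 to 25.3% ± 0.853. Of the kainate genes, Grik5 made up 68.5% ± 0.967 in Input and 61.3% ± 0.340 in Positive, and Grik3 9.78% ± 0.690 and 13.9% ± 0.304. In the GABA-A alpha class Gabra3 had 12.7% ± 1.66 in Input and 8.21% ± 1.54 in Positive, and Gabra5, the largest share, 34.1% ± 0.846 and 37.4% ± 1.22. Shares of a class add up to 100%, so that 1 large member moves the others. None of the shares given here overlapped between fractions, and they were not tested.

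**Figure D3:**
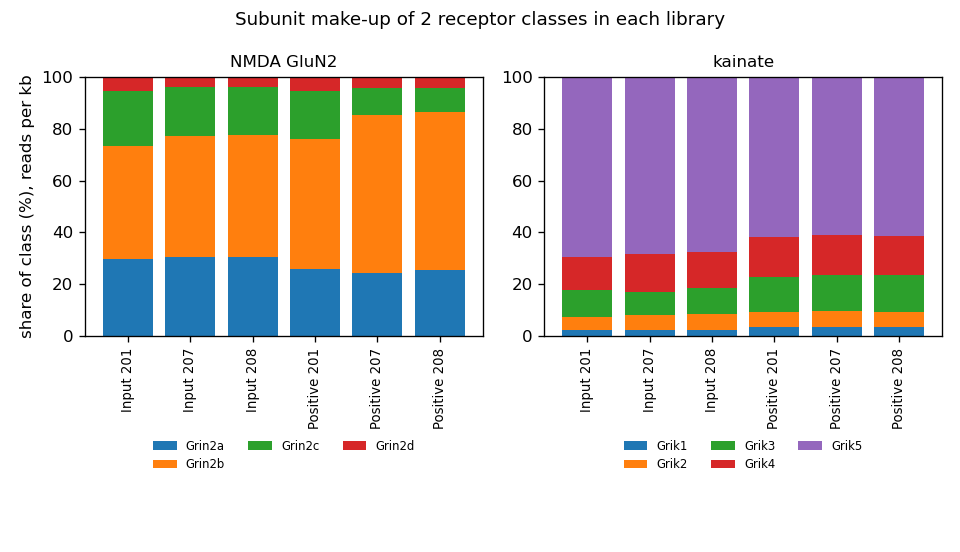
Share of each subunit in 2 receptor classes, the GluN2 and the kainate genes (vertical axis, percent of scaled reads per kb in the class) in the 3 Input and 3 Positive libraries. The Grin2b band is wider in the Positive libraries (57.4% on average against 45.8%) and the Grik5 band is narrower (61.3% against 68.5%).

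Genes that build, anchor or supply these receptors were counted over 9 lists, with 85 genes tested. In the edgeR fit 28 of them fell and 12 rose, with a median log2 fold change of -0.15. Of all genes tested 22.0% fell and 24.0% rose, with a median of -0.01. These shares also stand beside the counts of each list below. Of 16 AMPA auxiliary genes 9 fell and 1 rose, with a median of -0.31. The lowest were Cacng4 (-0.91), a TARP that traffics and tunes AMPA receptors, the cornichon Cnih2 (-0.90), which fell from 4716 ± 327 to 2532 ± 271 scaled reads (SD, n = 3; adjusted p-value 5.16e-06), and Cacng5 (-0.67). Abhd6, a lipase that holds back AMPA receptor delivery, rose by 0.48. Cacng8, the main hippocampal TARP, had a log2 fold change of -0.01 and did not pass.

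The kainate auxiliary gene Neto2 fell by 0.46 on the log2 scale, and Neto1 had a value of -0.20 that did not pass. Of 17 scaffold genes of excitatory synapses 6 fell and 2 rose, with a median of -0.10. Homer1 (-0.48), Homer2 (-0.43) and Shank1 (-0.43), which link metabotropic and NMDA receptors in the postsynaptic density, were the lowest. Dlg3 (0.42) and Shank2 (0.23) were the 2 that rose. Dlg2, which has 2 rows in the table and is not in these counts, was called higher in its abundant row (0.27, edgeR adjusted p-value 0.0418) and not in its sparse row (-0.07). Of 6 delta receptor partners, the cerebellins Cbln1 (-0.99) and Cbln4 (-0.63) and the neurexin Nrxn2 (-0.29) fell, while the cerebellin Cbln2 rose by 0.64.

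On the GABA side, 3 of 13 genes of GABA-A receptor assembly and scaffold rose, Gphn (0.33), which encodes the scaffold gephyrin, Clptm1 (0.32) and Gabarap (0.30). Lhfpl4, needed to bring GABA-A receptors to synapses, fell by 0.67 on the log2 scale, and Nlgn2, the neuroligin of inhibitory synapses, by 0.29. Of 7 GABA-B auxiliary genes, Kctd12 rose by 1.69 ± 0.11 (SE) on the log2 scale, from 2641 ± 254 to 8497 ± 1322 scaled reads (SD, n = 3; edgeR adjusted p-value 9.34e-08), and Ajap1 fell by 0.44. Kctd12, which speeds up GABA-B desensitisation, is also in the list of microglial genes from cell sorting that the study used, and the other KCTD genes of the receptor, Kctd8 (0.15) and Kctd16 (0.13), had 70.1 to 80.6 scaled reads on average in either fraction and did not pass. The 3 glycine receptor genes tested, Glra2 (0.53), Glra3 (-0.65) and Glrb (-0.16), did not pass.

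Genes of GABA synthesis and uptake divided by role: Gad2 (0.55) and Gad1 (0.34), which make GABA, and Abat (0.45), which degrades it, rose. The transporters Slc6a13 (-0.73) and Slc6a11 (-0.40) and the enzyme Maob (-0.45) fell, of 9 genes tested with a median of -0.03. Of 13 genes of glutamate synthesis, release and uptake, 3 fell and 1 rose. Slc17a8 (-0.87) and the cystine-glutamate exchanger Slc7a11 (-0.71) were the lowest, and the glial glutamate transporter Slc1a2 rose by 0.29. Slc17a7, the vesicular glutamate transporter of hippocampal principal cells, had a log2 fold change of 0.03. Some genes of these lists are also cell type markers: Gad1, Gad2, Slc32a1 and Slc17a7 of neurons and Slc1a2 and Slc1a3 of astrocytes.

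Markers of other cell types differed between the fractions beside the receptor subunits. Their counts here and in the next paragraph stand beside 22.0% of all genes tested that fell and 24.0% that rose. All 10 oligodendrocyte markers (median -2.58) and 9 of 10 markers of oligodendrocyte precursors (median -1.76) fell, and the precursor markers summed to 9754 to 10197 scaled reads in Input and 4068 to 6473 in Positive. Of 10 astrocyte markers 5 fell and 1 rose (median -0.35), and their sums overlapped, at 67532 to 72434 in Input and 63472 to 75529 in Positive. None of the markers was at 0 in any library. All 10 endothelial markers rose (median 1.88), 6 of 10 ependymal and choroid plexus markers fell (median -1.16), and 1 of 10 mural markers rose (median -0.24).

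Of the general neuronal markers 1 rose and 1 fell (median 0.06), and of the excitatory markers 2 rose and 1 fell (median -0.04). Of the 12 markers of inhibitory neurons 4 rose and 3 fell (median 0.16), with sums of 18051 to 19938 scaled reads in Input and 18607 to 20862 in Positive. Within that list Vip rose from 202 ± 17.8 to 639 ± 72.3 scaled reads and Pvalb fell from 701 ± 159.7 to 166 ± 44.1 (SD, n = 3), which are named here after their values were seen.

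The astrocyte markers had a median log2 Positive over Input of -0.14, -0.22 and -0.70 in animals 201, 207 and 208, and the precursor markers of -1.57, -1.65 and -2.10. Grm3 had -0.26, -0.59 and -0.82 in the same animals, Grin2c -0.31, -0.65 and -0.85, Gabrg1 -0.26, -0.70 and -0.64, and Gabrb1 -0.06, 0.50 and 0.25. Gabrb1 was thus higher in Positive in 2 animals, where the other 3 were lower in each. These 4 subunits are in the list of astrocyte genes from cell sorting that the study used. Of its 138 genes 85 fell and 3 rose (median -0.42), beside 22.0% and 24.0% of all genes tested. The part of glial RNA in these values was not tested. Gria1 is in the neuronal list of the study. Of its 99 genes 22 rose and 18 fell (median -0.01), beside 24.0% and 22.0% of all genes tested.

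**Figure D4:**
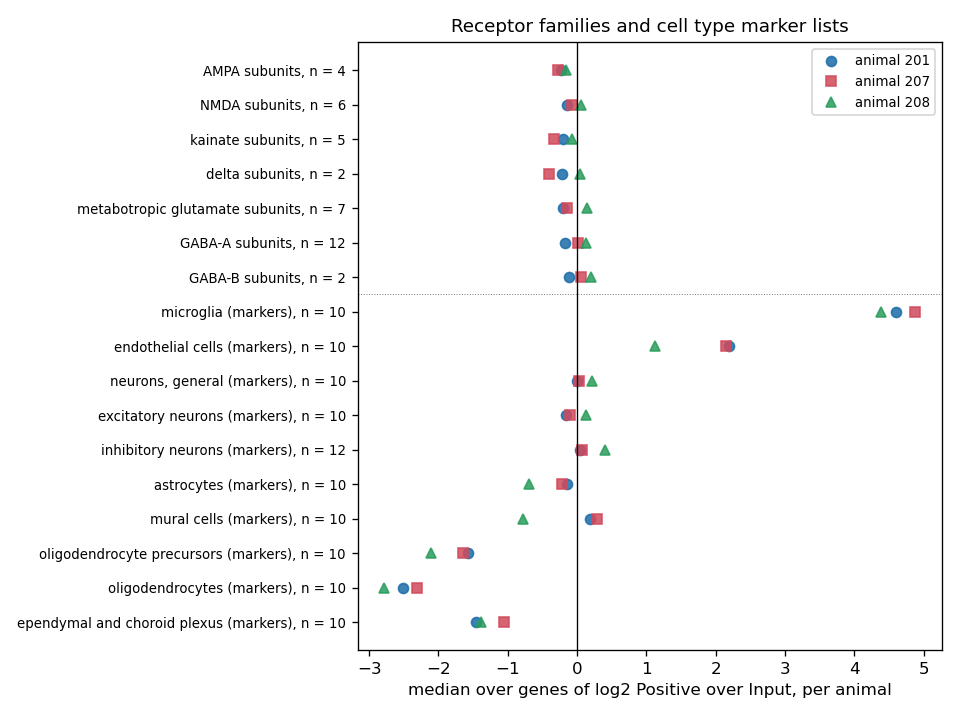
Median over genes of log2 Positive over Input in each animal (horizontal axis), for the 7 receptor families above the dotted line and the cell type marker lists below it. The receptor families lie between -0.41 and 0.20, the microglial medians lie at 4.38 to 4.88, and the oligodendrocyte medians at -2.78 to -2.30.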

How the data were processed

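RNA was measured in 6 libraries, 1 Input and 1 Positive library from each of 3 mice. Per the labels and methods, directional poly(A) libraries were aligned to mm10 in Strand NGS, and the authors scaled them with DESeq. The deposited table holds raw expected counts, mostly not whole numbers, and normalised log2 values made by the authors, which were used in no test. Its rows had passed the filter of the authors at 20 reads in all libraries of a fraction. All per-sample columns were mapped to a sample by name.

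Raw counts were rounded and tested in edgeR 4.0.16 (R 4.3.3; median-of-ratios scaling, quasi-likelihood test, no block) over the 15343 genes with over 20 scaled reads in all 3 libraries of a fraction, with Benjamini-Hochberg adjustment over all of them and a threshold of 0.05. The SE is the log2 fold change over the square root of F. Per-animal log2 ratios had a pseudocount of 1 and subunit ratios of 0.5. Ratios were compared with exact permutation tests, not paired by animal, in numpy 2.4.6 and scipy 1.17.1. Exon lengths came from GENCODE and promoters from RefSeq (GRCm38.p6, the assembly of mm10), where 15 of the 38 subunits had no entry. The fit was tested on simulated data.

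Alternatives were TMM and total count scaling, no further filter, at least 100 scaled reads, DESeq2 1.42.0, the animal as a replicate block, and each library left out in turn. Input and Positive were paired by the animal number in their sample titles. Deviations from fraction means had r = 0.19, 0.06 and 0.12 within animals 201, 207 and 208 and -0.14 to 0.03 between animals. Deviations cancel out within a fraction, so these r values depend on each other and are not a test of the pairing. Subunits named with values for each library were those called, the highest of each family in Input, and Gria2, Grin1, Gabbr1 and Gabbr2. Pathway genes named were up to 3 called in each direction per list. Any other gene was named with its values in view. Of the 38 subunits 5, which count in all totals, and their ratios are not reported here by name, nor is 1 pathway gene. The subunits and lists were chosen with earlier results of these data known. One scaffold gene, Dlg2, has 2 rows and was left out of the list counts. Reads carried no molecular identifiers. Errors are the spread between animals (SD) or come from the fit (SE).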

Additional observations from a re-analysis of the deposited data

How the results depend on the processing

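Of the 10 subunits called, Gabra3, Grin2c, Grik5, Gria4, Gabrg1 and Grik2 kept their call and direction under all 12 alternatives. The number of subunits called was 10 under TMM scaling, no further filter and at least 100 scaled reads, 11 in DESeq2, 12 under the replicate block of animals and 13 under total count scaling. Leaving out 1 library gave 6 to 15 called, 0 to 3 higher and 6 to 13 lower. Under total count scaling 1 subunit (Grin2b) was higher and 12 lower, and higher genes were 41.6% of all calls, in place of 52.2% in the reported fit. Gria2, Grik4, Grin2a and Gabbr1 passed under total count scaling, and Gabbr1 also with DESeq2. The replicate block changed no call other than those of Gabra2 and Grm8. With 2 libraries left in 1 fraction, its spread is taken from the fit over both.

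Signs of subunits near 0 were not fixed. Gabra4 was at 0.0018 under TMM scaling and Grm4 at -0.063 under total count scaling. With 1 library left out, the log2 fold change ran from -0.41 to 0.025 for Gabra2, -0.17 to 0.034 for Gabrg3, -0.084 to 0.081 for Gabra5, -0.068 to 0.081 for Gabra4, -0.15 to 0.0056 for Grid1, -0.14 to 0.064 for Grin3a and -0.11 to 0.16 for Grm4. The cause of these changes was not tested.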
